A study of Homo sapiens with 6 samples.

Results

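The 53 genes described here belong to the NRF2 system, the antioxidant enzymes and the enzymes of xenobiotic metabolism. They were followed in HCC827 cells, an established human lung adenocarcinoma line with a mutated EGFR gene, grown either as flat 2D cultures without coating or as 3D cultures. The labels state that the 3D cultures were made by the hanging drop method and that the spheroids were embedded into Matrigel, a basement membrane extract, whereas the legend in the paper speaks of spheroids only. Both groups had the same medium with serum and no drug treatment is given for them, and total RNA of 3 samples per group was hybridised to Affymetrix human exon arrays. Nothing in the labels says whether the 3 samples of a group came from separate cultures, so the p-values reflect only how far these samples scatter, and that scatter may be technical. All samples come from 1 cell line.

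Members were chosen by symbol. A probe set, here the probes of 1 transcript cluster, counted for a gene when its annotation named that gene alone, and the one with the highest mean signal was taken where a gene had several. Of the 53 genes, 35 had a probe set of their own. The other 18 did not: 14 were named only by probe sets that also name other genes, among them NFE2L2 and NQO1, and 4 (TXN, FTH1, AKR1B1 and MT2A) were named by no probe set used here. In all, 24 shared probe sets named a member and are described apart from the counts. The whole table holds 22011 probe sets and 14232 genes with a probe set of their own.

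NRF2, the product of NFE2L2, is a transcription factor that KEAP1 marks for degradation. When reactive compounds modify KEAP1, NRF2 accumulates, pairs with small MAF proteins and binds antioxidant response elements in front of genes for quinone reduction, thioredoxin and glutathione turnover, NADPH supply and conjugation. Phase I enzymes such as the cytochromes P450 oxidise foreign compounds, partly under the control of the aryl hydrocarbon receptor (AHR), and phase II enzymes couple the products to glutathione or glucuronic acid. In lung adenocarcinoma this system is known for mutations of KEAP1 and NFE2L2 and for its part in drug resistance.

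Promoter sequence was read for the members from RefSeq (GRCh38.p14), which gave windows of 250 bases before to 50 bases after the start site for 42 of the 53 genes, 58 windows in all. The core of the antioxidant response element was searched on both strands as TGACNNNGC. It was found in 14 of 58 member windows (24.1%) and in 13.3% of all 35116 windows. By gene, 13 of the 42 members with a window held it, against 16.1% of all 27305 genes. The matches in members whose signals are given below are printed here with 9 bases on each side, each read so that the core, in capitals, runs from TGAC to GC, to show how much the core's inner letters vary between these genes.
PGD, chr1:10398854-10398880, minus strand: gcacctagaTGACATTGCcccggcgag
TXNRD1, chr12:104215671-104215697, plus strand: cacgggctaTGACTTCGCtgttgtcac
TXNRD1, chr12:104215762-104215788, minus strand: tgtgggaacTGACGGAGCcgaaggacg
TXNRD1, chr12:104286921-104286947, minus strand: gagtcagaaTGACAAAGCagaaatcca
KEAP1, chr19:10502808-10502834, minus strand: cttttattgTGACACGGCgggcgcccg
KEAP1, chr19:10502785-10502811, plus strand: aggtcaccaTGACTAAGCagagccggg
GPX2, chr14:64942850-64942876, plus strand: tccccaggaTGACTTAGCaaaaacagg
GSTP1, chr11:67583737-67583763, plus strand: ccggcgccgTGACTCAGCactggggcg
MGST1, chr12:16347136-16347162, plus strand: gggacatcgTGACAAAGCaaattgtct
The PGD match begins 201 bases before the start site and the GSTP1 match 66 bases before it. The GSTP1 match also holds an AP-1 site (TGANTCA), since both motifs can overlap, whereas the other matches printed here do not. A match shows that these letters are present and not that NRF2 binds there.

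The probe set that names NQO1 and the one for PGD differed in opposite directions, as described below, and the windows of these genes are printed in full. In the NQO1 window, chr16:69726511-69726810 on the minus strand, the antioxidant response element core was not found among these letters. Sequence further upstream was not searched, so this absence does not show that NQO1 lacks the element.
NQO1: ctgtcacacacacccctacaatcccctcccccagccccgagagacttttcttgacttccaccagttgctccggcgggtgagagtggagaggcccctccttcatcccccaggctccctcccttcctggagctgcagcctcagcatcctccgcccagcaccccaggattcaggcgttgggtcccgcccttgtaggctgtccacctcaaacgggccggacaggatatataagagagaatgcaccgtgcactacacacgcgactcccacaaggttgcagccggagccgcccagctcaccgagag
The PGD window lies at chr1:10398814-10399113 on the plus strand, and the capitals mark the core as it stands on this strand, which is the reverse complement of the PGD match above.
PGD: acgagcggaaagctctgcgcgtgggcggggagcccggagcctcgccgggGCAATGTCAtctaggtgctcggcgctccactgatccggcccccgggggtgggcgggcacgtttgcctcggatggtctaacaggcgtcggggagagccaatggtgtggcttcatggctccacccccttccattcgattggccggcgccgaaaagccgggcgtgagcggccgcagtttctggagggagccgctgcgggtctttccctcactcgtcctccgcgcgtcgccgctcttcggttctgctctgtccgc

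Signals are log2 values, and every difference is the 3D mean minus the 2D mean on this scale. Values of 3 arrays are listed in the order of replicates 1, 2 and 3. The array labelled 3D replicate 2 stood apart: its score on the first principal component of all probe sets was 58.8, whereas the other 3D arrays had 22.8 and -2.99 and the 2D arrays -8.04 to -37.2. Pearson's r across probe sets was 0.980 to 0.987 between 2D arrays and 0.956 to 0.974 between 3D arrays. Among the 35 members, 3D replicate 2 gave the highest of the 3D signals for 19 genes and the lowest for 11. Single arrays moved many of the differences, and the values without one are given where they matter most. The epithelial markers were well expressed in all arrays, with 8 of 9 measured genes at a mean signal above the dimmest 40% of probe sets, among them CDH1, EPCAM and KRT8. NKX2-1 had no probe set of its own.

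Among the single members, none passed an adjusted p of 0.05 in either direction. Over all genes with a probe set of their own, 23 were called higher in 3D (0.162%) and 35 lower (0.246%). At an unadjusted p under 0.05, 3 members were higher in 3D (SOD1, CYP1B1 and CYP24A1, 8.57% of 35) and 4 were lower (PRDX6, GPX8, PGD and TKT, 11.4%). The shares over all genes were 7.46% and 7.12%, so that the member counts lay near the background. The 3 signals in 3D all lay above the 3 in 2D for 8 members, TXNRD1, PRDX1, GPX3, SOD1, AKR1C3, CYP1A1, CYP1B1 and CYP24A1 (22.9%, against 14.3% of all genes). They all lay below for 4 members, KEAP1, PRDX6, GPX8 and PGD (11.4%, against 9.75%). A gap of at least 0.2 separated 2 members upwards (CYP1B1 and CYP24A1) and 3 downwards (PRDX6, GPX8 and PGD), against 3.51% and 3.91% of all genes.

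The median difference of the members was -0.038, with 16 above 0 and 19 below, whereas the median over all genes was 0.071. The members ranged from -1.42 (PGD) to 1.56 (CYP24A1). A difference of more than 0.5 in size was seen in 6 of 35 members (17.1%) and in 12.2% of all genes. By mean signal, 10 of the 35 members were among the dimmest 40% of probe sets, against 5208 of all 14232 genes. These dim members were GPX1, GPX2, FTL, AKR1C3, CBR1, CYP1A1, CYP3A5, CYP24A1, GSTM3 and MT1X. The members spread more widely between 3D arrays than between 2D arrays. Their median SD was 0.13 in 2D and 0.36 in 3D, with the larger SD in 3D for 30 of 35, whereas over all genes the medians were 0.15 and 0.24, with the larger SD in 3D for 9991 of 14232. In bulk RNA, fewer cells that express a gene and less RNA of it per cell cannot be told apart.

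**Figure D1:**
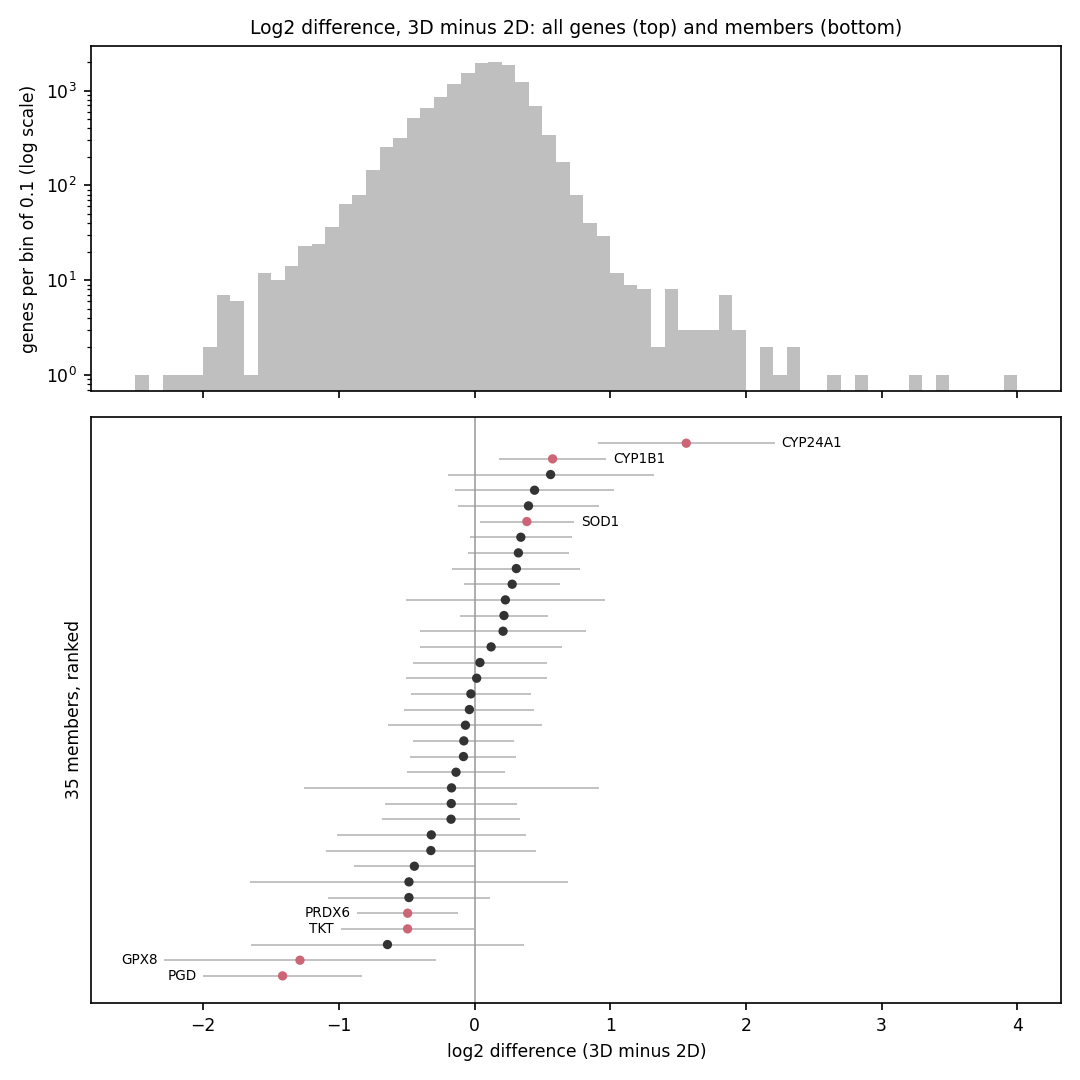
Top, number of genes (log axis) by log2 difference, 3D minus 2D, for the 14232 genes with a probe set of their own. Bottom, the 35 members ranked by their difference, with 95% confidence intervals from limma; red points have an unadjusted p under 0.05, and they run from PGD at -1.42 to CYP24A1 at 1.56.

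NQO1 reduces quinones and is among the best known NRF2 targets. Its only probe set also names NFAT5, a transcription factor of the response to osmotic stress, and the 2 genes cannot be told apart on it. The signal was 7.65, 7.15 and 7.44 in 2D and 8.52, 9.02 and 8.69 in 3D. All 3D arrays lay above all 2D arrays, with a gap of 0.88 between the groups. The signal rose by 1.33 ± 0.20 (SE, n = 3 per group), which is 2.52-fold, with an adjusted p of 0.0481 in limma. No other probe set that names a member passed the threshold. The difference ranged from 1.19 to 1.45 when single arrays were left out, and the call was lost without any one of the 6, with adjusted p of 0.167, 0.141 and 0.214 without 2D replicates 1, 2 and 3 and of 0.101, 0.0594 and 0.0715 without 3D replicates 1, 2 and 3. With an intensity trend in limma the adjusted p was 0.0502.

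The NRF2 gene itself showed no such separation. The probe set of NFE2L2, which also names the microRNA gene MIR3128, read 9.44, 9.53 and 9.31 in 2D and 9.68, 9.30 and 9.75 in 3D, so that 3D replicate 2 lay below every 2D array. The difference was 0.15 ± 0.17 (adjusted p = 0.697), with a 95% confidence interval from -0.26 to 0.55, and single arrays left out moved it between 0.06 (3D replicate 3) and 0.29 (3D replicate 2). KEAP1, the inhibitor, read 6.86, 7.09 and 6.99 in 2D and 6.22, 6.83 and 6.56 in 3D. The groups did not overlap, but the gap was 0.03, and the difference of -0.44 ± 0.19 gave an adjusted p of 0.331. Leaving out 3D replicate 2 gave -0.59 and leaving out 3D replicate 1 gave -0.28.

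HMOX1, which breaks down haem, read 5.98, 6.01 and 5.79 in 2D and 6.14, 6.23 and 5.53 in 3D. The 3D arrays lay on both sides of the 2D arrays, and the difference was 0.04 ± 0.21 (adjusted p = 0.942). TXNRD1 keeps thioredoxin reduced with electrons from NADPH. Its signal was 9.28, 9.27 and 9.29 in 2D and 9.51, 9.75 and 9.42 in 3D. Each 3D array was above the narrow 2D range, with a difference of 0.28 ± 0.15 (adjusted p = 0.418). OSGIN1, an inhibitor of cell growth induced by oxidative stress, read 6.80, 6.77 and 6.62 against 6.70, 7.41 and 7.00 with overlap, a difference of 0.31 ± 0.20 (adjusted p = 0.493). The OSGIN1 difference lay between 0.12 (without 3D replicate 2) and 0.47 (without 3D replicate 1). SRXN1, which repairs oxidised peroxiredoxins, differed by 0.02.

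**Figure D2:**
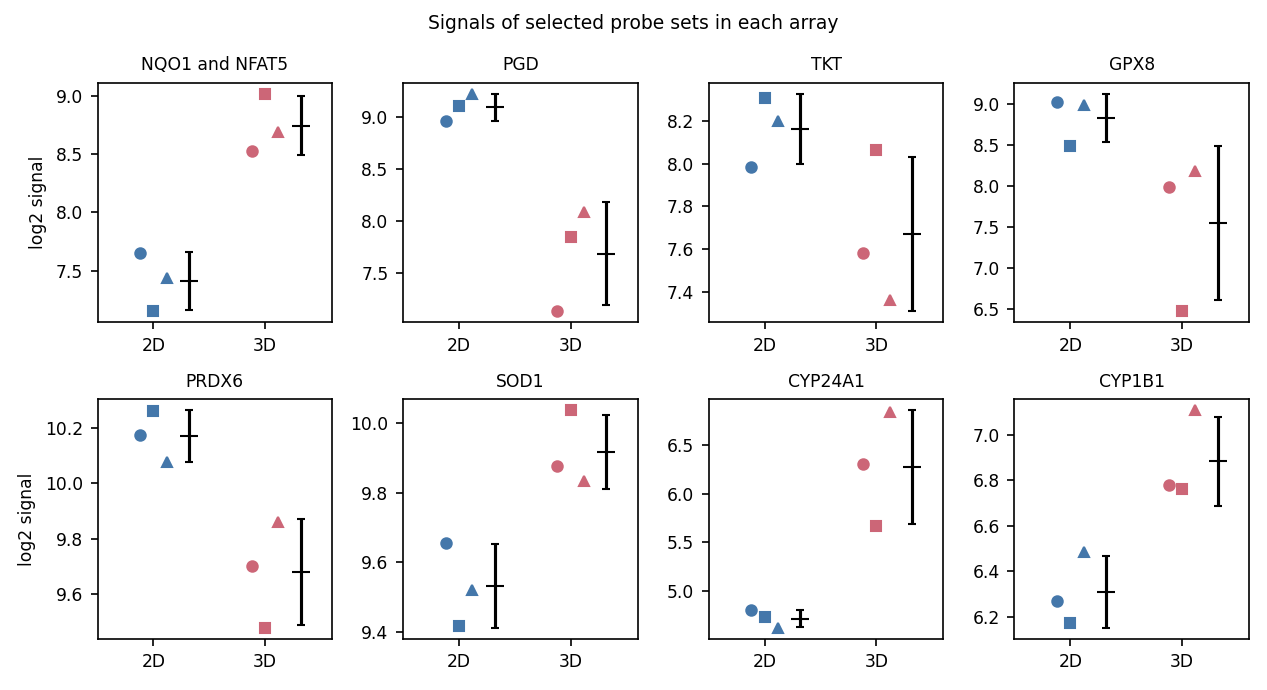
Log2 signals in each array of the shared probe set of NQO1 and NFAT5 and of the 7 members with an unadjusted p under 0.05. Circles, squares and triangles are replicates 1, 2 and 3, blue for 2D and red for 3D, the bars are mean ± SD (n = 3), and the axes do not start at 0; the groups of PGD and CYP24A1 are separated by gaps of 0.88 and 0.87, while TKT overlaps.

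Of the peroxiredoxins, which reduce peroxides with thiols, 3 of 4 were below 0 and 1 was above. PRDX6, which works with glutathione, read 10.18, 10.26 and 10.08 in 2D and 9.70, 9.48 and 9.86 in 3D. The 3D arrays were all lower with a gap of 0.22, and the difference was -0.49 ± 0.16 (unadjusted p = 0.0161, adjusted p = 0.238). PRDX3, the mitochondrial form, read 9.38, 8.39 and 8.69 in 2D and 8.47, 8.32 and 8.21 in 3D. Here 2D replicate 1 was high, and the difference of -0.48 ± 0.26 (adjusted p = 0.403) shrank to -0.20 without it and was -0.70 without 2D replicate 2. PRDX1, the abundant cytosolic form, had signals of 9.63, 9.77 and 9.71 in 2D and 10.00, 9.86 and 9.91 in 3D. These groups were 0.08 apart and differed by 0.22 ± 0.14 (adjusted p = 0.487). PRDX2 differed by -0.17 on its brighter probe set (-0.37 with 3D replicate 2 left out, -0.01 with 3D replicate 3 left out) and by -0.19 on its other one.

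The glutathione peroxidases were split, with GPX2 and GPX3 above 0 and GPX1, GPX4 and GPX8 below. GPX8, a peroxidase of the endoplasmic reticulum, read 9.02, 8.49 and 8.99 in 2D and 7.99, 6.47 and 8.18 in 3D. All 3D arrays were lower, and 3D replicate 2 was far below the rest. The difference was -1.29 ± 0.43 (unadjusted p = 0.0181, adjusted p = 0.245) and -0.75 without that array (adjusted p = 0.161). GPX3, the secreted form, read 5.87, 6.06 and 5.65 in 2D and 6.20, 6.24 and 6.11 in 3D, a difference of 0.32 ± 0.16 with a gap of 0.05 (adjusted p = 0.385). GPX2, the form known from the gut epithelium and an NRF2 target, read 5.33, 5.33 and 5.43 in 2D and 5.27, 5.85 and 6.30 in 3D. The 3 signals of GPX2 in 3D spread over more than the 2D range on both sides, and the difference was 0.44 ± 0.25 (adjusted p = 0.438). It ranged from 0.19, with 3D replicate 3 left out, to 0.71, with 3D replicate 1 left out. GPX1, the cytosolic form, read 5.53, 6.07 and 5.78 in 2D and 5.18, 6.25 and 4.98 in 3D, with 3D replicate 2 above all others. Its difference was -0.32 ± 0.33 (adjusted p = 0.655) and ranged from -0.71 without 3D replicate 2 (adjusted p = 0.164) to -0.08 without 3D replicate 3. GPX4, which reduces lipid peroxides in membranes, differed by -0.17, with a range from -0.41 (without 3D replicate 2) to -0.05 (without 3D replicate 3), and GSR, which regenerates glutathione, by 0.21.

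SOD1, the cytosolic superoxide dismutase, read 9.66, 9.42 and 9.52 in 2D and 9.88, 10.04 and 9.83 in 3D. The groups were 0.18 apart, and the difference was 0.38 ± 0.15 (unadjusted p = 0.0343, adjusted p = 0.294). SOD2, the mitochondrial dismutase, shares its brighter probe set with its overlapping transcript SOD2-OT1. That probe set read 7.46, 7.73 and 7.67 in 2D and 8.00, 8.34 and 9.13 in 3D. Again all 3D arrays were higher, 3D replicate 3 most of all, and the difference was 0.87 ± 0.28 (unadjusted p = 0.0157, adjusted p = 0.236). Leaving out single arrays gave 0.55 (without 3D replicate 3) to 1.12 (without 3D replicate 1). The dimmer probe set shared by SOD2 and FAM177B differed by 0.45 ± 0.24 (adjusted p = 0.414). CAT, the catalase, differed by -0.08.

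The pentose phosphate pathway supplies NADPH for glutathione and thioredoxin reduction. PGD, which yields NADPH from 6-phosphogluconate, read 8.96, 9.11 and 9.22 in 2D and 7.13, 7.84 and 8.08 in 3D. All 3D arrays were lower, 0.88 apart from the 2D arrays, and 3D replicate 1 was the lowest. The difference was -1.42 ± 0.25 (2.67-fold lower, unadjusted p = 0.000571), with an adjusted p of 0.0707 that missed the threshold. It ranged from -1.62 to -1.14 when single arrays were left out. PGD passed in 3 other settings, with an adjusted p of 0.0396 when dim probe sets were left out before the fit, 0.0293 with array weights and 0.0257 with 1 probe set per gene. TKT, the transketolase of the same pathway, read 7.99, 8.31 and 8.20 in 2D and 7.58, 8.06 and 7.36 in 3D. There, 3D replicate 2 lay within the 2D range. The difference was -0.49 ± 0.21 (unadjusted p = 0.0493, adjusted p = 0.329) and ranged from -0.69 without 3D replicate 2 to -0.34 without 3D replicate 3. TALDO1, the transaldolase, is on a probe set with INTS8, which differed by 0.02 ± 0.26 and covered the whole 2D range in 3D (9.01 to 10.05). FTL, the ferritin light chain, differed by -0.48 ± 0.51, with 4.40, 6.60 and 5.45 in 3D, by -1.04 without 3D replicate 2 and by 0.06 without 3D replicate 1.

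**Figure D3:**
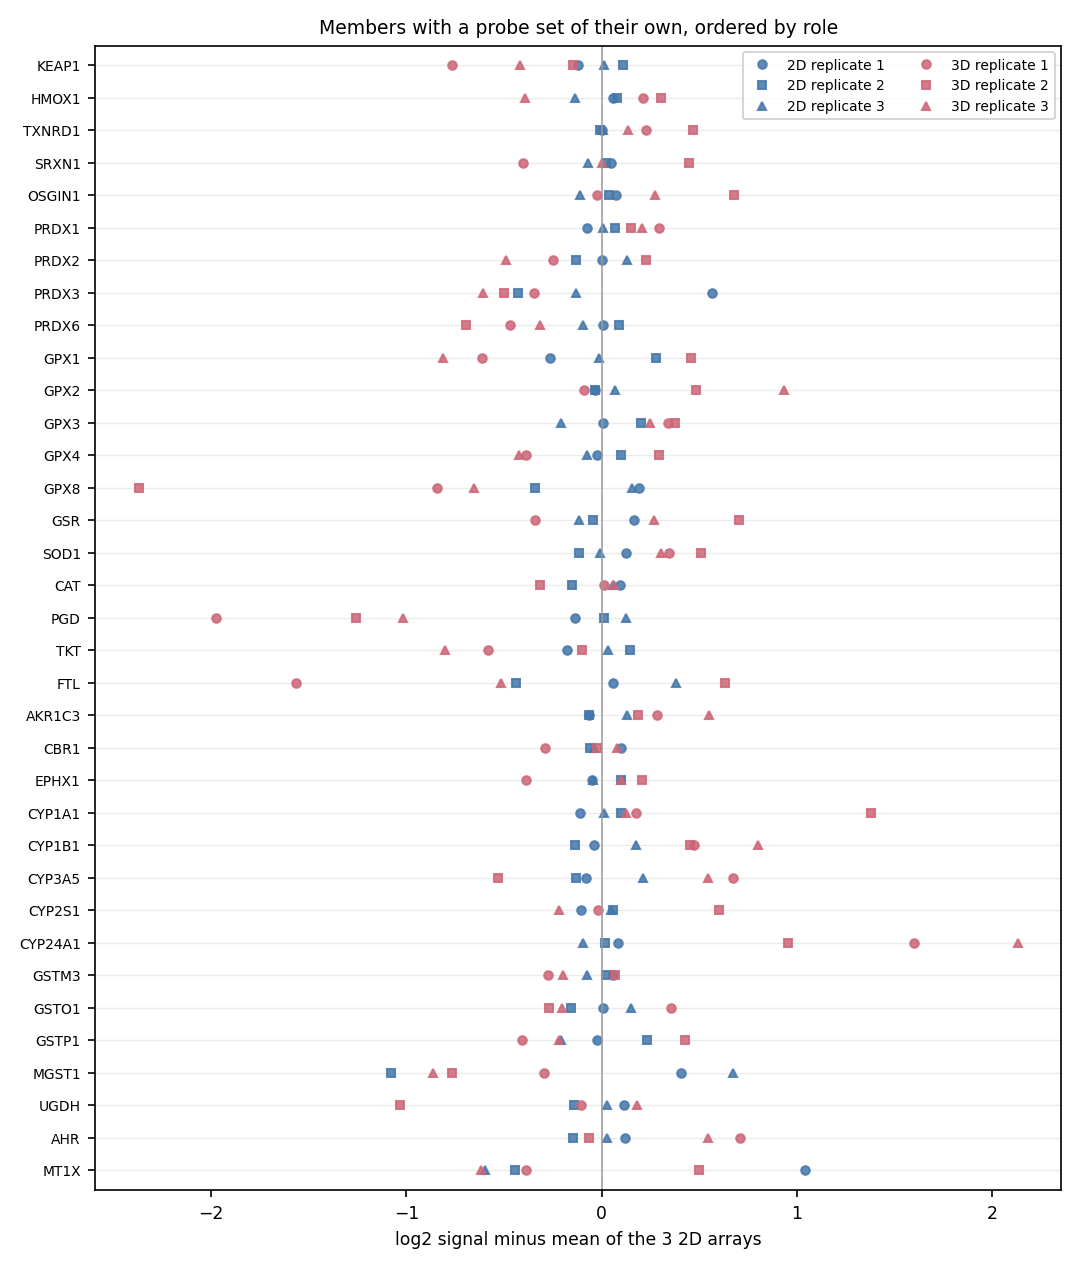
Signal of each of the 35 members in each array as the distance from the mean of the 3 2D arrays (log2), ordered by role from KEAP1 to MT1X. The 2D arrays (blue) lie closer together than the 3D arrays (red) for 30 of 35 members, and 3D replicate 2 (red squares) is the highest 3D array for 19.

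The cytochromes P450 held the highest difference among the members. CYP24A1, which inactivates vitamin D, was dim in 2D at 4.80, 4.73 and 4.62 and read 6.31, 5.67 and 6.84 in 3D. The gap between the groups was 0.87, and the lowest 3D signal was that of 3D replicate 2. The difference was 1.56 ± 0.28 (unadjusted p = 0.000619, adjusted p = 0.0735), with a confidence interval from 0.91 to 2.21. Without 3D replicate 2 the difference was 1.86 and passed the threshold (adjusted p = 0.0206), as it did with array weights (adjusted p = 0.0143) and with 1 probe set per gene (adjusted p = 0.0257). CYP1B1, an AHR target that oxidises polycyclic hydrocarbons and oestrogens, read 6.27, 6.17 and 6.49 in 2D and 6.78, 6.76 and 7.11 in 3D. Its groups were 0.28 apart and differed by 0.57 ± 0.17 (unadjusted p = 0.0102, adjusted p = 0.205). CYP1A1, the classical AHR target, read 5.36, 5.57 and 5.49 in 2D and 5.65, 6.86 and 5.60 in 3D. The groups were 0.02 apart, only 3D replicate 2 stood clearly above, and the difference of 0.56 ± 0.33 (adjusted p = 0.444) was 0.15 without that array. CYP3A5, CYP2S1 and EPHX1, the microsomal epoxide hydrolase, differed by 0.23, 0.12 and -0.03, and CYP3A5 ranged from 0.005 (without 3D replicate 1) to 0.61 (without 3D replicate 2). CYP4F3, which hydroxylates leukotrienes and fatty acids, was seen only on 2 dim probe sets shared with CYP4F2. They differed by 0.82 ± 0.51 (0.23 without 2D replicate 2) and 0.01 ± 0.16.

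AHR, the receptor, read 9.72, 9.46 and 9.63 in 2D and 10.31, 9.54 and 10.15 in 3D. Replicates 1 and 3 of 3D lay above all 2D arrays and replicate 2 within them. The difference was 0.40 ± 0.22 (adjusted p = 0.429) and ranged from 0.24 without 3D replicate 1 to 0.63 without 3D replicate 2 (adjusted p = 0.134). AHRR, its repressor, shares a probe set with PDCD6 and PDCD6P1. This probe set differed by 0.25 ± 0.15 with a gap of 0.03 (adjusted p = 0.469).

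AKR1C3, a reductase of steroids and prostaglandins, was dim in both groups, with 4.15, 4.15 and 4.35 in 2D and 4.50, 4.40 and 4.77 in 3D. The groups were 0.06 apart and the difference was 0.34 ± 0.16 (adjusted p = 0.365). AKR1C1 and AKR1C2 were present only on dim probe sets that they share with each other or with AKR1C3. The differences were 0.19 ± 0.30 and -0.14 ± 0.25. AKR1B10, an NRF2 target that reduces retinal and other aldehydes, shares a dim probe set with AKR1B15, which differed by 0.39 ± 0.17 (adjusted p = 0.332). CBR3, a carbonyl reductase, shares its dim probe set with DOP1B. The signal was 6.07, 5.81 and 6.16 in 2D and 5.27, 5.55 and 5.30 in 3D. Every 3D array was lower, and the difference was -0.64 ± 0.17 (unadjusted p = 0.00517, adjusted p = 0.162). CBR1 differed by -0.08.

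**Figure D4:**
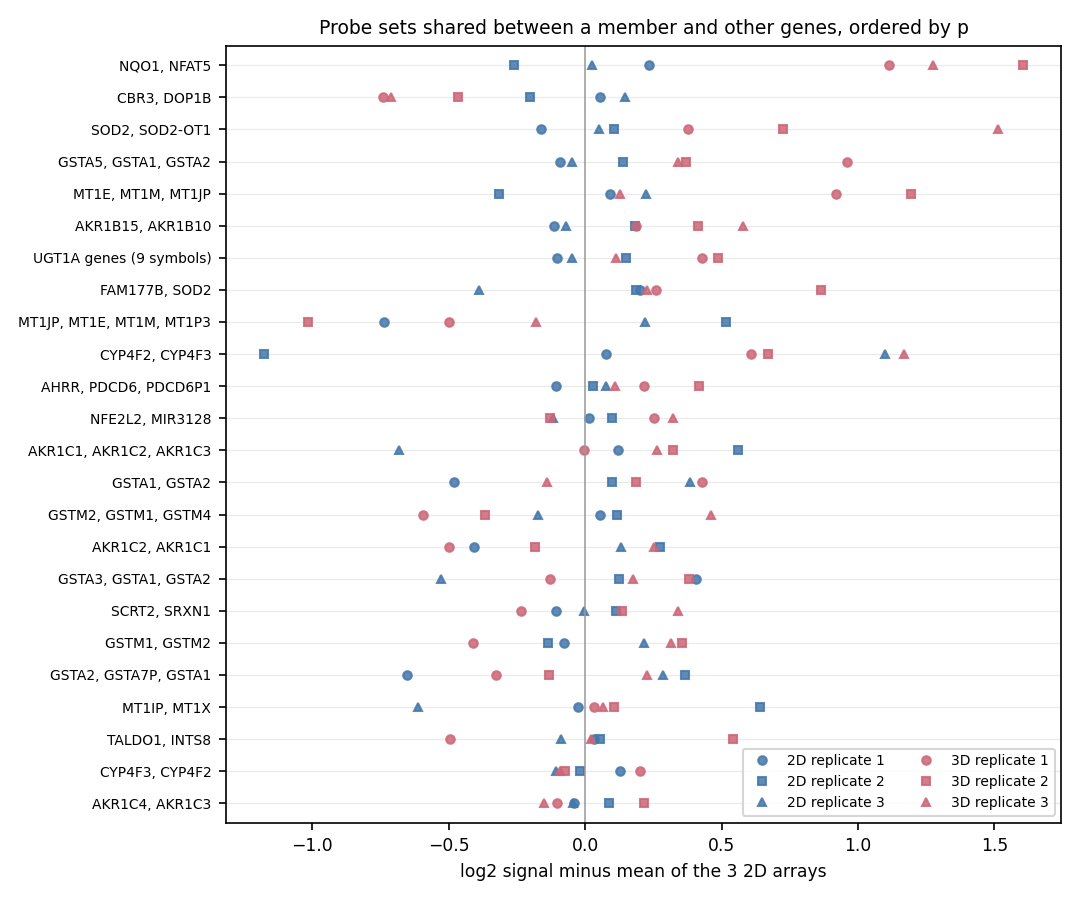
Signal in each array of the 24 probe sets that name a member together with other genes, as the distance from the mean of the 3 2D arrays (log2), ordered by unadjusted p. The probe set of NQO1 and NFAT5 is at the top, with 3D arrays (red) above all 2D arrays (blue), and that of CBR3 and DOP1B follows with 3D arrays below.

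All 4 glutathione transferases with a probe set of their own were below 0, by 0.64 or less, and none passed the threshold. GSTP1, the abundant pi form of lung epithelium, read 9.98, 10.23 and 9.79 in 2D and 9.59, 10.43 and 9.78 in 3D. The 3D arrays reached beyond the 2D range on both sides, and the difference was -0.07 ± 0.24 (adjusted p = 0.909). MGST1, the microsomal form, read 8.76, 7.28 and 9.03 in 2D and 8.06, 7.59 and 7.49 in 3D. Here 2D replicate 2 was the lowest of all arrays. The difference was -0.64 ± 0.43 (adjusted p = 0.50) and ranged from -1.18 without that array (adjusted p = 0.176) to -0.31 without 2D replicate 3. GSTM3 and GSTO1 differed by -0.14 and -0.04, and GSTO1 turned to 0.016 with array weights. GSTA1 was named by 4 dim probe sets, all with other alpha genes. The one with GSTA5 and GSTA2 read 5.31, 5.54 and 5.36 in 2D and 6.36, 5.77 and 5.74 in 3D. Its groups did not overlap and differed by 0.56 ± 0.20 (unadjusted p = 0.0269, adjusted p = 0.276), while the other 3 probe sets differed by 0.16, 0.14 and -0.08. The 2 probe sets that name GSTM1 differed by 0.09 and -0.17.

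UGDH makes the UDP-glucuronic acid that glucuronidation uses. It read 9.75, 9.50 and 9.67 in 2D and 9.53, 8.61 and 9.82 in 3D. Only 3D replicate 2 was clearly low, and the difference of -0.32 ± 0.30 (adjusted p = 0.620) was 0.04 without it. UGT1A6, a transferase of this pathway, lies on a dim probe set that names 9 genes of the UGT1A cluster. Its difference was 0.34 ± 0.17 (adjusted p = 0.375). Of the metallothioneins, which bind zinc and other metals, MT1X was dim and differed by -0.17 ± 0.47. MT1E shares a probe set with MT1M and MT1JP that read 5.94, 5.54 and 6.07 in 2D and 6.77, 7.04 and 5.98 in 3D. Replicates 1 and 2 of 3D lay above the 2D arrays and replicate 3 among them, with a difference of 0.75 ± 0.29 (unadjusted p = 0.034, adjusted p = 0.294). The other probe set that names MT1E was dim and differed by -0.56 ± 0.35.

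Members with the antioxidant response element core in a promoter window did not share a direction. Of the 10 with the core and a probe set of their own, 2 were above 0 (TXNRD1 and GPX2) and 8 below, with a median of -0.073. Of the 18 with a window but no core, 8 were above 0 and 10 below, with a median of -0.110. The core of the AHR site (GCGTG) was present in 53.4% of member windows and 36.5% of all windows, and the core of the metal response element (TGCACNC or TGCGCNC) in 48.3% and 29.6%. The AP-1 site was present in 6.90% and 7.71%. CYP1A1 had the AHR core, and MT1X and MT2A had the metal response element core. The windows read from RefSeq did not include CYP24A1, CYP1B1, PRDX6, SOD1, HMOX1, GSR and PRDX1. These members have a probe set of their own but are in neither the 10 nor the 18. CBR3, AKR1B10, MT1E and FTH1 also had no window.

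The surrounding pathways were read from lists of related genes, and none of their genes passed an adjusted p of 0.05. As a background for the counts and medians of these lists, 7.46% of all genes reached an unadjusted p under 0.05 upwards and 7.12% downwards. The median difference of all genes was 0.071. Of 17 measured further NRF2 targets, at an unadjusted p under 0.05 the counts were 1 higher and 3 lower, and the median difference was -0.011. SLC7A11, which imports cystine for glutathione synthesis, read 8.31, 8.40 and 8.36 in 2D and 6.89, 6.70 and 7.58 in 3D, 0.73 apart, with a difference of -1.30 ± 0.24 (adjusted p = 0.0735). SLC7A11 passed without 3D replicate 3 (-1.56, adjusted p = 0.0213). IDH1, another source of NADPH, read 10.78, 10.47 and 10.76 in 2D and 9.85, 9.88 and 9.91 in 3D, a difference of -0.79 ± 0.15 (adjusted p = 0.0887). ABCC4, a drug exporter, differed by -0.39 ± 0.15. The 1 higher gene was TXNIP, an inhibitor of thioredoxin, with 0.34 ± 0.14 (adjusted p = 0.320). The list did not tell apart genes that NRF2 raises and genes that it lowers. The 3 lower genes were below every 2D array in every 3D array, and TXNIP was above. Of the whole list, 8 genes were above 0 and 9 below. The 6 measured partners and regulators of NRF2 had 0 genes at this p and a median of 0.052.

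Among 16 other genes of the thioredoxin, peroxiredoxin, glutaredoxin, glutathione peroxidase and superoxide dismutase families, at an unadjusted p under 0.05 there were 3 higher and 1 lower, with a median of 0.22. They were led by PRDX4, the peroxiredoxin of the endoplasmic reticulum (0.56 ± 0.15), TXN2, the mitochondrial thioredoxin (-0.74 ± 0.21), and GLRX3, a glutaredoxin (0.73 ± 0.22). Of 11 genes of iron and haem handling, 2 were higher and 1 lower, with a median of 0.16. SLC40A1, the iron exporter ferroportin, differed by 0.93 ± 0.20 (adjusted p = 0.113) and TFRC, the transferrin receptor that imports iron, by -1.05 ± 0.24 (adjusted p = 0.124). HMOX2, the constitutive haem oxygenase, differed by 0.49 ± 0.16.

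For the AHR pathway, 1 of 6 measured genes was lower at an unadjusted p under 0.05, the AHR partner ARNT with -0.42 ± 0.17, and the median was 0.10. Of 24 other phase I enzymes, 2 were higher and 0 lower, with a median of 0.080. Both were flavin monooxygenases, FMO5 with 5.38, 5.17 and 5.37 in 2D and 6.56, 5.95 and 7.10 in 3D (1.23 ± 0.28, adjusted p = 0.124) and FMO1 (0.80 ± 0.21). FMO5 passed without 3D replicate 2 (1.53, adjusted p = 0.0372). Of 20 other phase II enzymes, 3 were higher and 4 lower, with a median of 0.072, beside 0.071 for all genes. GSTK1, a mitochondrial and peroxisomal glutathione transferase, read 8.24, 8.46 and 8.38 in 2D and 7.55, 7.63 and 7.46 in 3D, with a difference of -0.81 ± 0.15 (adjusted p = 0.0729). The sulfotransferase SULT1C2 and the glutathione transferase GSTA4 differed by 0.74 ± 0.24 and 0.69 ± 0.22. In the list of other metallothioneins and their metal-dependent regulation, with 6 measured genes, the zinc exporter SLC30A1 (0.45 ± 0.14) was higher and MT1G (-0.58 ± 0.22) lower at the same p, with a median of -0.19.

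Markers of cell types were read beside these values. All 9 measured epithelial markers were below 0, 4 of them at an unadjusted p under 0.05 (KRT19 with -1.16, CLDN4 with -0.80, KRT7 with -0.77 and KRT18 with -0.62), and the log2 of their summed signal was 12.76 to 12.86 in 2D and 12.23 to 12.63 in 3D. All 9 fibroblast markers were above 0, with a median of 0.19 and 0 at this p, and 7 of them were dim. Over all genes, 8482 of 14232 were above 0, with a median of 0.071. The summed signal of the fibroblast markers was 8.39 to 8.58 in 2D and 8.56 to 8.80 in 3D. Of 8 blood cell markers, 7 were above 0 and 1 was below, with a median of 0.40. At this p 2 were higher, CD14 (0.71) and CSF1R (0.43), and 5 of the 8 were dim, CD14 among them. The summed signal of the 8 was 10.04 to 10.28 in 2D and 9.92 to 10.54 in 3D. CD68, the brightest of the list and the only one below 0, had a mean of 9.81 in 2D and 9.66 in 3D and differed by -0.15. The pan-leucocyte marker PTPRC differed by 0.09, at a mean of 3.60 in 2D and 3.69 in 3D. Of 10 endothelial markers, 8 were above 0 and 2 below, with a median of 0.12. Only 1 was higher at this p (EMCN, 0.38), and 8 were dim, EMCN among them. Log2 signals of such arrays have no true zero, and the part of these shifts in the members' differences was not tested.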

How the data were processed

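Total RNA of 6 HCC827 samples was measured on Affymetrix human exon arrays. The authors deposited log2 signals made by RMA in the R package oligo (background correction, quantile normalization and summary by transcript cluster; versions not given), and these were used as they stand. Probe sets were named through the platform annotation, and the Entrez IDs of 35 of 35 members matched RefSeq with the same symbol. Probe sets are printed without coordinates because no source used here names the build behind them, and promoter coordinates are those of RefSeq.

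All 6 arrays entered 1 linear model per probe set (limma 3.58.1, R 4.3.3), 2-sided and with no covariate. The Benjamini-Hochberg adjustment ran over 22011 probe sets, with a threshold of 0.05. The methods name limma and this adjustment but give neither the design nor a threshold. Dim means under the 40th percentile of mean signal. The code of the fit was run on simulated data with equal spread in both groups. The larger spread of the 3D arrays was not simulated. Plots were made in Python 3.11.15 (matplotlib 3.10.9). Arrays have no sequencing depth, and the precision is limited by how many there are.

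The members and lists were chosen with earlier results of these data known. Values of every array are given for members past the threshold, for the 20 members with the smallest p and for NFE2L2, KEAP1, NQO1, HMOX1, AHR, TXNRD1, GSTP1 and SOD2, also for other shared probe sets and list genes where they help. Of each pathway list, up to 3 genes with the smallest p were named; TXNIP and the single marker genes were chosen after their values were seen. Alternatives were a dim filter, an intensity trend, a robust prior, array weights, a replicate block, 1 probe set per gene, the mean over probe sets of a gene, repeated quantile normalization, a minimum difference of 1 for calls, a minimum gap for separate groups and leaving out each array.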

Additional observations from a re-analysis of the deposited data

How the results depend on the processing

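These results rest on 3 arrays per group. Of the members, 1 was called higher and 1 lower with array weights and with 1 probe set per gene, against 0 and 0, and 1 lower without dim probe sets. Leaving out single arrays gave 0 to 1 higher (1 without 3D replicate 2) and 0 to 0 lower. At an unadjusted p under 0.05, 5 members were higher with array weights, and single arrays left out gave 2 to 5 higher (against 3) and 2 to 8 lower (against 4; 2 without 2D replicate 1 and 8 without 3D replicate 2). Over all genes, 10.6% were higher with array weights. Without 2D replicate 3, 2 members and 3.43% of all genes were higher, and without 3D replicate 2, 5 members and 7.87% of all genes. The all-gene shares that were lower were 4.30% without 2D replicate 1 and 8.07% without 3D replicate 2. With a minimum gap of 0.2, 2 members were separated upwards in place of 8 and 3 downwards in place of 4. With no minimum gap, single arrays left out gave 8 to 11 upwards and 4 to 11 downwards. The 11 upwards came without 3D replicate 1, where 19.8% of all genes were separated upwards. The 11 downwards came without 3D replicate 2, where 16.4% of all genes were separated downwards. Of the pathway genes, array weights called 1 higher and 4 lower, the dim filter 1 lower and 1 probe set per gene 3 lower, against 0. Single arrays left out gave 0 to 1 called in each direction, and at the unadjusted p 7 to 15 higher (against 12) and 5 to 13 lower (against 11). Over all genes, single arrays left out gave 3.43% to 9.76% higher and 3.79% to 8.90% lower at that p. Over all genes, the calls of 23 higher and 35 lower became 101 and 167 with array weights, 58 and 127 with 1 probe set per gene and 82 lower with the dim filter, and 0 to 57 and 0 to 56 without single arrays. The cause of these shifts was not tested. Fewer features were adjusted over with the dim filter and with 1 probe set per gene, but the part of this in the shifts was not tested either. With 1 probe set per gene the all-gene shares before adjustment moved too, from 7.46% to 8.78% upwards and from 7.12% to 8.13% downwards. With the dim filter, which leaves genes out, these shares were 4.80% and 5.99%. A second quantile normalization moved no value by more than 0.006.

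Same-numbered 2D and 3D arrays deviated together with correlations of 0.0892, 0.374 and 0.223. For 2D replicates 2 and 3 the same number was the best match, but 2D replicate 1 correlated best with 3D replicate 3 (0.167). Pairing by number thus stayed uncertain, and the main fit took no pairs. With the replicate block, 0 members were called, at an unadjusted p under 0.05 the counts were 3 higher and 6 lower, beside 1409 (9.90%) and 1318 (9.26%) of all genes, and the adjusted p of the probe set of NQO1 and NFAT5 was 0.0713.

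Small differences changed sign. With array weights SRXN1 was -0.12, GSTO1 0.016, the probe set of GSTM1 and GSTM2 -0.083 and that of TALDO1 and INTS8 -0.14. Without single arrays the differences ranged from -0.092 to 0.26 for HMOX1, -0.20 to 0.22 for SRXN1, -0.036 to 0.49 for GSR, -0.16 to 0.036 for CAT, -1.04 to 0.057 for FTL, -0.16 to 0.026 for CBR1, -0.15 to 0.15 for EPHX1, -0.12 to 0.29 for CYP2S1, -0.24 to 0.077 for GSTO1, -0.31 to 0.10 for GSTP1, -0.57 to 0.037 for UGDH and -0.50 to 0.35 for MT1X. The probe sets with several names ranged from -0.48 to 0.048 (GSTM2, GSTM1 and GSTM4), -0.048 to 0.34 (GSTM1 and GSTM2), -0.40 to 0.11 (GSTA2, GSTA7P and GSTA1), -0.081 to 0.35 (GSTA1 and GSTA2), -0.12 to 0.34 (GSTA3, GSTA1 and GSTA2), -0.15 to 0.47 (AKR1C1, AKR1C2 and AKR1C3), -0.13 to 0.056 (AKR1C4 and AKR1C3), -0.35 to 0.035 (AKR1C2 and AKR1C1), -0.24 to 0.28 (TALDO1 and INTS8), -0.24 to 0.39 (MT1IP and MT1X), -0.083 to 0.076 (CYP4F3 and CYP4F2) and -0.049 to 0.24 (SCRT2 and SRXN1). The other 23 members and 12 shared probe sets kept their direction under every alternative run.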
